A study of Rattus norvegicus with 39 samples.

Results

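ANIT (alpha-naphthyl isothiocyanate) is a compound used in rats to injure bile duct cells and to stop the flow of bile. Livers of rats given ANIT, 125 mg/kg in corn oil by mouth (5 arrays), were set against livers of untreated rats (9 arrays). These were 14 of the 39 arrays of the study, chosen by their labels, which number them as biological replicates. RNA came from the left lateral lobe, frozen 48 h after treatment, and all rats were 5 to 6 weeks old. No vehicle is named for the untreated rats, so ANIT, corn oil and the handling of dosing cannot be told apart, and strain and sex are not given in the sources used here. A further 2 groups of 5 arrays each, from rats of the same age, served a second comparison, DMN (dimethylnitrosamine, by mouth at 15 mg/kg in water) and NMF (N-methylformamide, 1000 mg/kg in saline into the peritoneum), both also taken at 48 h.

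Hepatocytes make bile acids from cholesterol, take them up again from portal blood through transporters of the sinusoidal membrane, and export them into the bile canaliculi. When bile cannot leave, pumps of the basolateral membrane can return bile acids to the blood, and the bile acid receptor FXR (Nr1h4) with its partner SHP (Nr0b2) restrains synthesis and uptake. ANIT is joined to glutathione in the hepatocyte, leaves through the canalicular pump Abcc2 and is set free again in bile, where it meets the cells of the ducts.

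Values are log2 intensities on Affymetrix Rat 230 2.0 arrays, and a difference of 1 is a 2-fold change. Array values follow the order ANIT 1 to ANIT 5, and the 9 untreated arrays are given as lowest, median and highest. Fold changes are log2 of ANIT over untreated with the SE of limma, and calls were made where the p adjusted over all 14217 genes was under 0.05. Mean intensity per array ran from 356 to 360 in ANIT and from 350.3 to 363 in untreated liver. Albumin RNA (Alb) was at 14.38, 14.46, 14.45, 14.46 and 14.42 in ANIT and 14.40, 14.45 and 14.47 in untreated liver. Of 11 hepatocyte markers 1 was called higher (8.19% of all genes), Apoa1 at 0.38 ± 0.12, and none lower.

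The array labelled ANIT 3 stood apart from the other ANIT arrays. Its root mean square difference over all genes from the other 4 was 0.58 to 0.76, against 0.39 to 0.57 among those 4. It lay nearest to DMN 4, at 0.34. Of all 741 pairs of arrays the most alike were ANIT 2 and the array labelled Roziglitazone 2, at 0.24, while the next closest pair, untreated 6 and untreated 7, differed by 0.31. Over genes, the deviations of Roziglitazone 2 had a correlation of 0.80 with those of the ANIT arrays. With those of the other Roziglitazone arrays it was -0.30. The deviations of ANIT 2 had a correlation of 0.76 with those of the other ANIT arrays. Results are therefore given with and without ANIT 3, and Roziglitazone 2 entered only the estimate of the spread. Against untreated liver the fit without ANIT 2 gave 1811 calls, beside 2344 with all arrays. That without ANIT 3, Roziglitazone 2 and DMN 2 gave 2270. The cause of the likeness was not tested. DMN 2, which enters the DMN values below, lay nearest to Roziglitazone 5, at 0.42, and its deviations from the other arrays had a correlation of 0.0034, over genes, with those of the other DMN arrays. By 2 measures of RNA quality ANIT 5 stood below the other ANIT arrays. The 3′ minus 5′ signal of the GAPDH control was 2.33 in ANIT 5 and 0.31 to 0.89 in the others, and that of the beta-actin control was 2.89 in ANIT 5 and 0.67 to 1.35 in the others. The GAPDH control was low at its 5′ end in 2 of the 9 untreated arrays, 4 and 5. In untreated 5 it was low at the 3′ end as well, at 8.09, against 12.75 to 13.16 in the other untreated arrays. DMN 3 and NMF 3, which enter the values below, were also low at the 5′ end, at 6.87 and 7.08.

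Of 14217 genes, 1165 were called higher (8.19%) and 1179 lower (8.29%) in ANIT. Every count in a gene list against untreated liver is to be read beside these shares. At least 2-fold changes made up 329 of the higher and 237 of the lower calls. Without ANIT 3 there were 1185 higher (8.34%) and 919 lower (6.46%) calls, 1850 of them shared with the 2344 of all 5 arrays. All 2344 kept their direction without that array. The split between higher and lower depended on the scaling: after median centring of the arrays, 1666 genes were called higher and 627 lower, and this centring moved the median fold change of all genes by 0.13. The ANIT and untreated arrays did not overlap in 816 genes (5.74%), 766 of which were called.

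Lcn2 (lipocalin-2), which captures the iron carriers of bacteria, had the largest rise over all 5 ANIT arrays, with 13.12, 13.34, 12.66, 12.87 and 12.65 in ANIT and 6.71, 7.95 and 9.71 in untreated liver (4.92 ± 0.90, adjusted p = 0.000207). Without ANIT 3 its fold change of 4.98 came after that of Abcc3, 5.004. Rnd1, a GTPase that loosens the actin cytoskeleton, was at 8.77, 9.58, 8.59, 8.99 and 9.29 in ANIT and 4.28, 4.87 and 5.55 in untreated liver (4.19 ± 0.45, adjusted p = 3.77e-07). Mybl1, a transcription factor of the Myb family, was near background in untreated liver, with 3.56, 4.04 and 4.42, and at 7.49, 8.27, 8.19, 7.86 and 8.31 in ANIT. That was at least 11.8-fold higher, with untreated arrays set at the 90th percentile of the poly-A spike-in controls, with an adjusted p of 3.77e-07. In these 3 genes every ANIT array, ANIT 3 included, stood above every untreated array. Neurl3, a ubiquitin ligase, and Ppl (periplakin), which ties keratin filaments to cell contacts, rose 9.77-fold and 9.29-fold, again with no overlap.

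The largest fall was in Stac3, an adaptor best known from muscle, at 5.19, 6.01, 5.21, 5.30 and 5.91 in ANIT against 10.32, 10.69 and 11.36 in untreated liver (-5.31 ± 0.62, adjusted p = 7.91e-07). Serpina6, the corticosteroid-binding globulin of plasma, was at 8.02, 8.04, 10.16, 7.68 and 7.53 in ANIT and 9.81, 12.72 and 13.003 in untreated liver (-4.09 ± 0.57, adjusted p = 6.02e-06). Car3, a carbonic anhydrase, was at 8.85, 8.39, 12.30, 8.75 and 10.18 in ANIT and 13.33, 13.54 and 13.75 in untreated liver (-3.85 ± 0.53, adjusted p = 5.88e-06). Stac3 was low in all 5 ANIT arrays, ANIT 3 included. Serpina6 and Car3 were higher in ANIT 3 than in the other 4, for Serpina6 inside the untreated range and for Car3 still below it. The low end of the untreated range of Serpina6, 9.81, was untreated 5, the array low in GAPDH signal at both ends. Sez6, a membrane protein known from neurons, Nrep, a small protein linked to neuronal regeneration, and Dhrs7l1, a dehydrogenase, fell by 3.46, 3.24 and 3.07 on the log2 scale. Akr1c3, an aldo-keto reductase, fell by 3.08.

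Of 14 genes of bile acid synthesis 1 was called higher and 2 lower, near the shares of all genes (8.19% higher, 8.29% lower). Without ANIT 3 there were 2 higher and 3 lower. Cyp7a1, the rate-limiting enzyme of the classic pathway, was at 10.86, 10.74, 8.52, 10.74 and 11.68 in ANIT and 7.61, 9.85 and 12.12 in untreated liver. The untreated arrays spanned more than the ANIT arrays, and the difference did not pass (0.55 ± 0.68, adjusted p = 0.608). Cyp8b1, which makes cholic acid, had a fold change of -1.22 ± 0.44 with an adjusted p of 0.0504, just short of the threshold, and Cyp27a1, which opens the alternative pathway, had -0.25 ± 0.14 (adjusted p = 0.213). Of the peroxisomal enzymes that shorten the side chain 2 were lower, Acox2 at 10.77, 9.92, 11.35, 10.88 and 10.59 in ANIT and 11.34, 12.01 and 12.51 in untreated liver (-1.22 ± 0.26, adjusted p = 0.00138), and the racemase Amacr at -1.14 ± 0.23 (adjusted p = 0.000706). Slc27a5, which activates bile acids with coenzyme A for conjugation, was higher at 12.95, 12.79, 12.08, 13.01 and 12.81 in ANIT against 11.84, 12.20 and 12.49 in untreated liver (0.49 ± 0.15, adjusted p = 0.025). In the last gene ANIT 3 lay within the untreated range and the other 4 above it.

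Of 10 genes of export across the canalicular membrane 2 were higher and 2 lower (8.19% and 8.29% of all genes), with or without ANIT 3. Abcb4 moves phospholipid into bile. It was at 11.52, 11.47, 10.22, 11.97 and 11.37 in ANIT and 8.66, 9.21 and 10.01 in untreated liver (1.998 ± 0.30, adjusted p = 2.05e-05), every ANIT array above every untreated one. Abcb1a, the multidrug pump P-glycoprotein, rose 2.95-fold (1.56 ± 0.36, adjusted p = 0.00297). The sterol exporter is a dimer of Abcg5 and Abcg8. Abcg5 was at 5.88, 5.60, 7.85, 5.66 and 5.61 in ANIT and 6.49, 8.30 and 9.57 in untreated liver (-1.97 ± 0.51, adjusted p = 0.00636), with ANIT 3 inside the untreated range and the other 4 below it. Abcg8 fell by 1.54 (adjusted p = 0.00472). The bile salt pump Abcb11 was at 11.55, 11.65, 11.29, 11.54 and 11.58 in ANIT and 11.16, 11.32 and 11.60 in untreated liver (0.14 ± 0.16, adjusted p = 0.555), and Abcc2 had -0.38 ± 0.20, adjusted p = 0.198. Neither passed, and in both the groups overlapped.

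Of the 7 measured genes of basolateral efflux, 2 were higher and 1 lower (8.19% and 8.29% of all genes). Abcc3, which returns bile acid conjugates to the blood, was at 10.68, 10.10, 7.15, 10.65 and 11.21 in ANIT and 4.52, 5.51 and 7.15 in untreated liver (4.30 ± 0.70, adjusted p = 4.97e-05). ANIT 3 lay at the top of the untreated range and the other 4 at 10.10 to 11.21, and without ANIT 3 the fold change was 5.004 ± 0.70, adjusted p = 5.39e-06. Abcc4, a related pump, rose 1.7-fold (adjusted p = 0.0227) and Abcc6, a transporter tied to ATP release, fell by 0.59 (adjusted p = 0.0208). Slc51a, a subunit of the bile acid exporter OST, had -0.26 ± 0.23, adjusted p = 0.446, and its partner Slc51b was not analysed here.

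Of 9 transporters of sinusoidal uptake 5 were lower in RNA and none higher, with a median fold change of -0.69, where the median of all genes was -0.09. Slc10a1, the sodium-dependent bile acid carrier NTCP, was at 11.49, 11.50, 12.20, 11.80 and 11.29 in ANIT against 12.35, 12.74 and 12.85 in untreated liver (-1.04 ± 0.20, adjusted p = 0.000438). Slc22a8, an organic anion carrier, was at 9.82, 9.89, 10.24, 9.85 and 9.44 in ANIT and 11.09, 11.61 and 11.71 in untreated liver (-1.67 ± 0.26, adjusted p = 2.07e-05). Every ANIT array was below every untreated array in both genes. The organic anion carriers Slco1b2 and Slco1a1 fell by 0.83 and 1.33, the second with ANIT 3, at 9.85, inside the untreated range of 9.13 to 10.59. All 5 were also called without ANIT 3, and 4 of 9 were lower with median-centred arrays.

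Nr1h4, the bile acid receptor FXR, was lower at 8.94, 8.84, 9.78, 9.09 and 9.88 in ANIT against 9.88, 10.64 and 10.88 in untreated liver (-1.20 ± 0.26, adjusted p = 0.00141). Nr0b2, the repressor SHP, was lower as well, with 7.73, 8.07, 8.06, 7.59 and 8.88 in ANIT and 8.25, 9.54 and 10.23 in untreated liver (-1.21 ± 0.36, adjusted p = 0.0182). Every ANIT array was below every untreated array in Nr1h4, and all but ANIT 5 were in Nr0b2. They were the only 2 of 11 bile acid sensing genes called, and both calls held without ANIT 3. The plot of bile acid genes by array shows these levels.

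**Figure D1:**
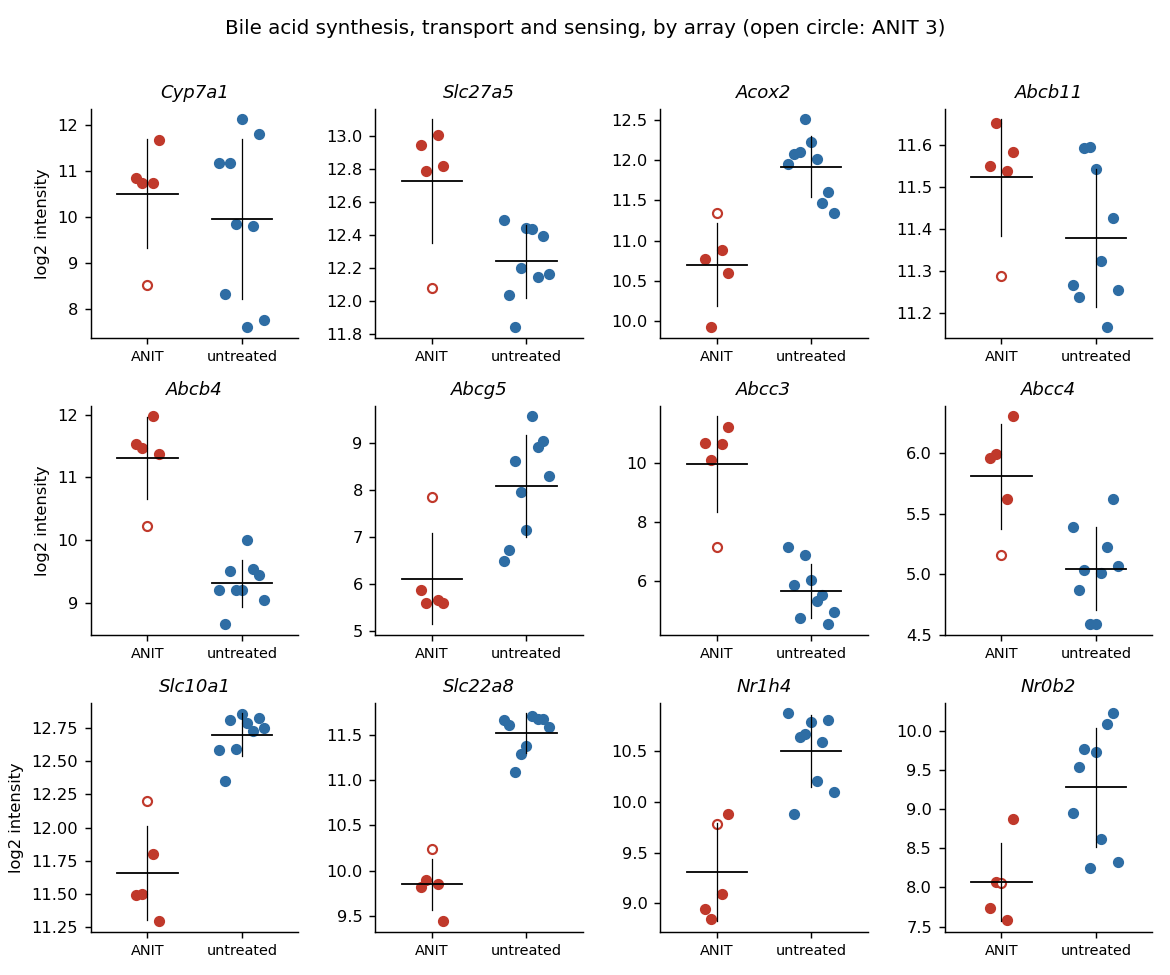
Log2 intensity of 12 genes of bile acid synthesis, export, uptake and sensing in each ANIT array (left, red; ANIT 3 as an open circle) and each untreated array (right, blue), with the group mean as a bar and 1 SD as a vertical line. Abcb4 is higher in all 5 ANIT arrays, Slc10a1 and Slc22a8 are lower in all 5, and Abcc3 and Abcg5 at ANIT 3 lie within the untreated range.

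Among 14 markers of bile duct epithelium 3 were higher and 1 lower (8.19% and 8.29% of all genes), with a median fold change of -0.05. In RNA of whole liver, fewer cells of a type and less RNA per cell cannot be told apart. The keratin Krt19, a defining duct marker, was lower, at 6.18, 6.18, 6.83, 6.23 and 6.02 in ANIT against 6.65, 7.07 and 7.67 in untreated liver (-0.90 ± 0.25, adjusted p = 0.0108). Krt7, another, had a fold change of 0.03 ± 0.17 (adjusted p = 0.927), and Spp1 (osteopontin) had 0.30 ± 0.25 (adjusted p = 0.418). Epcam, an adhesion molecule of epithelia, was higher at 9.47, 9.66, 8.13, 9.43 and 10.04 in ANIT and 7.44, 8.08 and 9.05 in untreated liver (1.23 ± 0.28, adjusted p = 0.00217), with ANIT 3 alone inside the untreated range. The tight junction gene Cldn7 was at 7.36, 5.60, 5.10, 7.54 and 7.96 in ANIT and 4.96, 5.56 and 6.20 in untreated liver (1.11 ± 0.28, adjusted p = 0.00619). It was high in 3 ANIT arrays, while ANIT 2 and ANIT 3 lay within the untreated range. Tm4sf4, a membrane protein, was the last of the higher genes (0.64 ± 0.17, adjusted p = 0.00616).

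None of 12 neutrophil markers was called by limma in ANIT, and 0 were called without ANIT 3. S100a8 and S100a9, the calprotectin of neutrophils, had 0.70 ± 0.45, adjusted p = 0.287 and 0.40 ± 0.53, adjusted p = 0.634. S100a9 was at 10.89 in ANIT 3, above the untreated range of 7.35 to 9.42, and at 7.73 to 8.54 in the other 4. The mean level of the whole list relative to untreated liver was 0.75 in ANIT 3, -0.27 to -0.08 in the other ANIT arrays and -0.20 to 0.14 in untreated arrays. Of 14 macrophage markers, Gpnmb, a glycoprotein of lysosome-rich macrophages (1.91 ± 0.39, adjusted p = 0.000722), and lysozyme Lyz2 (1.10 ± 0.24, adjusted p = 0.00129) were higher and Adgre1, the F4/80 antigen, lower (-0.92 ± 0.31, adjusted p = 0.0355). Of 16 lymphocyte markers 3 were lower (Lck, Cd8a and Cd5, by 0.54 to 0.63) and none higher, and Cd5 was not called without ANIT 3. The endothelial genes Stab2 and Kdr were called lower at -0.94 ± 0.30 and -1.08 ± 0.28, yet at -0.53 ± 0.27, adjusted p = 0.188 and -0.74 ± 0.27, adjusted p = 0.0557 without ANIT 3, where neither passed. Of 17 stellate cell genes, Timp1, an inhibitor of matrix proteases (1.53 ± 0.31, adjusted p = 0.000655), the filament gene Vim (1.06 ± 0.28) and Cygb, a globin of stellate cells (0.83 ± 0.18), were higher. Lrat, which stores retinol as ester in these cells, was lower (-1.59 ± 0.43, adjusted p = 0.0101), as was Loxl2 (-0.49 ± 0.14), which cross-links collagen. Of 18 collagens and laminins 2 were higher and 1 lower, near the shares of all genes (8.19% higher, 8.29% lower). The lower one was at -0.94 and the median of the list was 0.10. Without ANIT 3 the counts were 4 and 1. Col1a1, a collagen of scar, was called only without ANIT 3 (0.66 ± 0.33, adjusted p = 0.162; without ANIT 3 1.02 ± 0.32, adjusted p = 0.0277). The laminin gene Lama5 rose 4.68-fold (2.23 ± 0.42, adjusted p = 0.00027). Of 13 pancreatic acinar genes 5 were lower and none higher, and 4 that were not called lay near background in both groups. The level taken as background, from the spike-in controls, averaged 4.17 in ANIT and 4.46 in untreated arrays. The lower genes included Cela1, an elastase, at -1.52 ± 0.35, adjusted p = 0.00236.

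The list of keratins, actin, tubulin, annexins, S100 proteins and their partners had the greatest share of higher members. Of its 30 genes 22 were higher (8.19% of all genes) and 1 lower. Their median fold change was 0.95, and the counts were the same without ANIT 3. Lists and members were chosen with earlier results of these data known, so this share describes the list and tests nothing. Krt8 and Krt18 form the keratin pair of hepatocytes. Krt8 was at 13.40, 13.36, 12.17, 13.37 and 13.14 in ANIT and 10.91, 11.10 and 11.53 in untreated liver (1.91 ± 0.25, adjusted p = 3.47e-06). Krt18 was at 13.42, 13.50, 12.51, 13.46 and 13.44 in ANIT and 11.26, 11.49 and 12.21 in untreated liver (1.67 ± 0.22, adjusted p = 3.54e-06). Both were lowest in ANIT 3 and even there above every untreated array. Tpm1, a tropomyosin that lies along actin filaments, was at 11.57, 11.68, 11.02, 11.22 and 11.57 in ANIT and 9.02, 9.47 and 9.79 in untreated liver (1.93 ± 0.22, adjusted p = 5.62e-07). Anxa7, a membrane-binding annexin, rose 4.74-fold (2.24 ± 0.28, adjusted p = 1.29e-06). Myl9, a myosin light chain of smooth muscle, was the one member called lower, at -0.67 ± 0.16 (adjusted p = 0.00346). The other higher members were tubulins (Tubb6, which had the largest rise of the list, and Tubb5), annexins (Anxa2, Anxa5), small calcium-binding proteins (S100a4, S100a6, S100a10, S100a11), actin linkers (Ezr, Msn, Actn1, Actn4, Flna), other tropomyosins (Tpm3, Tpm4), Cnn3, Myl12a and the actin gene Actg1. The 22 fold changes ranged from 0.57 to 2.48.

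Genes of tight junctions and cell contacts were higher in 7 of 20 and lower in none, and in 9 of 20 without ANIT 3. Cdh1 (E-cadherin) was at 11.91, 11.95, 11.23, 12.15 and 12.08 in ANIT and 10.14, 10.73 and 11.26 in untreated liver (1.11 ± 0.24, adjusted p = 0.0012). F11r, the junction adhesion molecule JAM-A, was at 12.14, 12.02, 11.30, 12.01 and 11.77 in ANIT and 10.53, 10.90 and 11.45 in untreated liver (0.91 ± 0.16, adjusted p = 0.000151). In both genes ANIT 3 lay inside the untreated range and the other 4 above it. Dsp (desmoplakin), which anchors keratin at desmosomes, rose 2.18-fold and Ctnna1 (alpha-catenin), which ties cadherin to actin, 1.78-fold. The plot of cytoskeleton and contact genes sets each fold change beside that without ANIT 3.

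**Figure D2:**
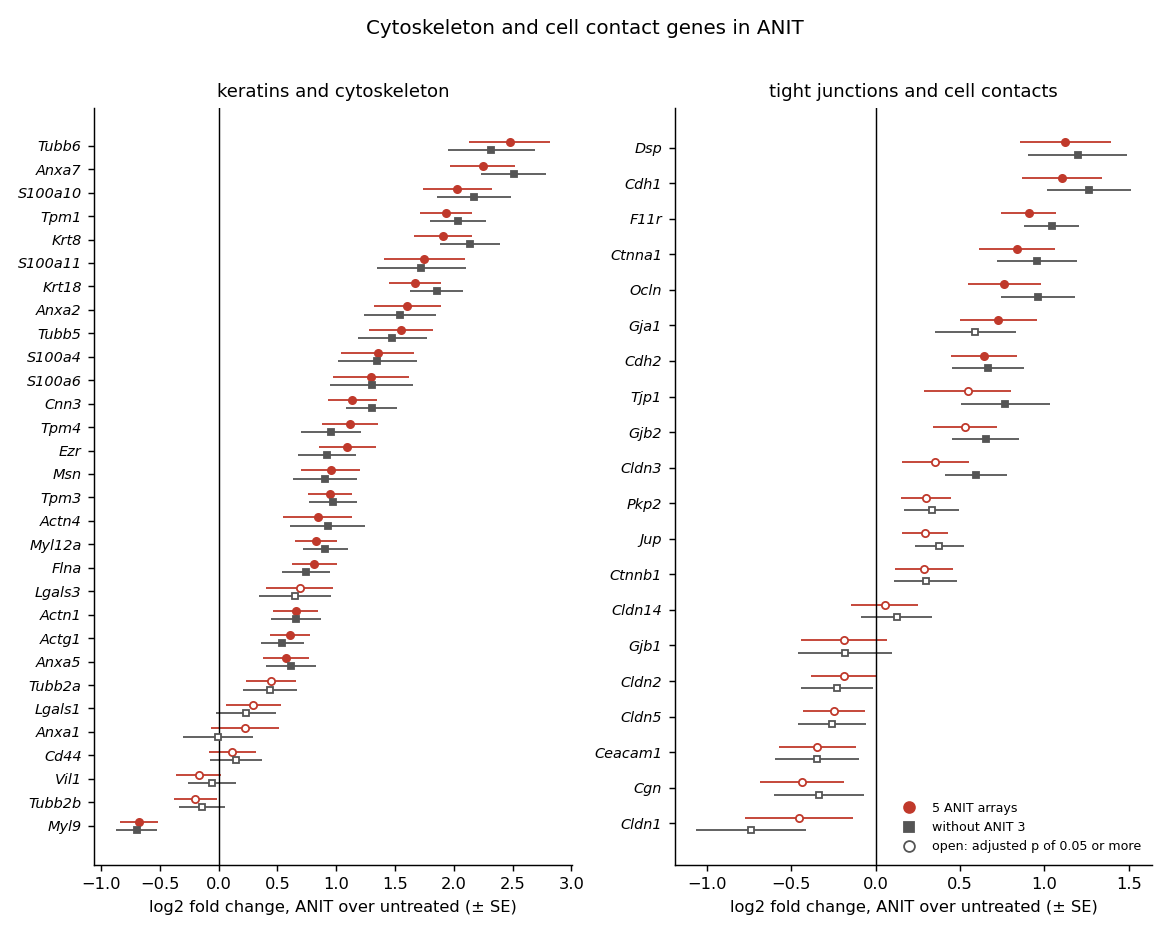
Log2 fold change of ANIT over untreated liver (x axis, with SE) for 30 cytoskeleton genes (left panel) and 20 cell contact genes (right panel), from 5 ANIT arrays (red circles) and without ANIT 3 (grey squares); open symbols have an adjusted p of 0.05 or more. In the left panel 22 genes are called higher and Myl9 lower in both fits, and in the right panel 7 are called higher with all arrays and 9 without ANIT 3.

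Plasma proteins of the acute phase rose in part, 6 of 23 higher and 1 lower. Besides Lcn2, A2m, the broad protease inhibitor of the rat acute phase, was at 12.19, 12.34, 12.30, 11.98 and 12.32 in ANIT and 7.14, 8.89 and 10.55 in untreated liver (3.35 ± 0.68, adjusted p = 0.00074). Lbp, which binds bacterial lipopolysaccharide, was at 12.42, 12.97, 12.12, 12.72 and 12.60 in ANIT and 10.03, 10.32 and 10.86 in untreated liver (2.19 ± 0.33, adjusted p = 1.76e-05). Orm1, an acid glycoprotein, was at 13.82, 13.88, 13.78, 13.75 and 13.80 in ANIT and 11.86, 12.96 and 13.19 in untreated liver (0.96 ± 0.21, adjusted p = 0.00119). None of these genes overlapped between the groups. Hamp (hepcidin), the iron hormone, rose 3.58-fold (1.84 ± 0.54, adjusted p = 0.0159), and Cd14, the lipopolysaccharide co-receptor, was the member called lower (-1.02 ± 0.23, adjusted p = 0.00236). The fibrinogen genes, Hp and C3 were not called, nor was Crp. The count was higher, 10 of 23, with median-centred arrays.

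Among 31 chemokines and inflammatory signals 6 were higher and 2 lower, with a median of -0.11. Tnfaip3 (A20), a brake on NF-kB, was at 8.43, 8.37, 7.72, 8.14 and 8.39 in ANIT and 5.99, 6.27 and 7.65 in untreated liver (1.76 ± 0.35, adjusted p = 0.00048), with no overlap. Nfkbia, another brake, rose 1.92-fold and Icam1, the adhesion molecule for leukocytes, 1.81-fold (adjusted p = 0.00511 and 0.00362). Ccl2, which draws monocytes, was called at 1.09 ± 0.38, adjusted p = 0.0442, but not without ANIT 3 (0.90 ± 0.41, adjusted p = 0.136). Cxcl1, which draws neutrophils, had 0.59 ± 0.69, adjusted p = 0.581 and every ANIT array inside the untreated range. Ccl5, which draws T cells, and Cxcl12, which holds stem cells and lymphocytes in place, fell by 1.21 and 1.04 (adjusted p = 0.00192 and 0.000253). Of 17 complement genes 2 were higher and 4 lower, and with median-centred arrays none was lower. The coagulation factor F5 rose 2.18-fold (1.12 ± 0.32, adjusted p = 0.0124).

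Of 38 cytochromes P450 and their reductase, 16 were lower (8.29% of all genes) and 4 higher. Cyp2c11, the main male cytochrome of rat liver, was at 11.37, 9.84, 11.14, 11.06 and 10.01 in ANIT and 13.16, 13.42 and 13.60 in untreated liver (-2.70 ± 0.37, adjusted p = 5.88e-06). Cyp3a2, a steroid hydroxylase, was at 11.58, 10.26, 12.93, 10.10 and 11.10 in ANIT and 12.52, 13.12 and 13.56 in untreated liver (-1.91 ± 0.31, adjusted p = 5.03e-05), with ANIT 3 alone inside the untreated range. Cyp2t1 and Cyp4f4, a fatty acid hydroxylase, fell by 1.44 and 1.15. Cyp2e1, which oxidises small solvents, was not called (-0.40 ± 0.20, adjusted p = 0.17). Cyp1a1, the classic target of the aryl hydrocarbon receptor, went the other way, with 11.76, 10.03, 5.48, 9.996 and 12.19 in ANIT and 5.69, 6.13 and 8.30 in untreated liver (3.42 ± 0.75, adjusted p = 0.00163). It was below every untreated array in ANIT 3 and above every untreated array in the other 4 ANIT arrays, and without ANIT 3 the fold change was 4.52 ± 0.65, adjusted p = 8.91e-06. Cyp1a2, another target of that receptor, had -0.16 ± 0.13, adjusted p = 0.42. Cyp4f5, Cyp17a1, an enzyme of steroid synthesis, and Por, the reductase that feeds electrons to the cytochromes, were the other higher members, at 1.17 ± 0.25, 1.21 ± 0.40 and 0.50 ± 0.16.

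Conjugating and flavin enzymes followed. Of 24 genes of glucuronidation, sulfation, other conjugation and flavin oxidation 7 were lower (8.29% of all genes) and none higher. Those with the lowest adjusted p were Fmo1, Fmo4, Inmt and Nat8, none of them an enzyme of glucuronidation or sulfation. Fmo1, a flavin monooxygenase, was at 7.38, 7.82, 7.37, 8.62 and 7.86 in ANIT and 10.31, 11.002 and 11.33 in untreated liver (-3.10 ± 0.48, adjusted p = 2.36e-05), and Inmt, an indole methyltransferase, fell by 2.98 (adjusted p = 1.81e-05). Of 21 glutathione S-transferases 3 were higher and 7 lower. Gstp3 was at 8.54, 7.55, 10.65, 7.23 and 8.84 in ANIT and 11.99, 12.50 and 12.92 in untreated liver (-3.91 ± 0.51, adjusted p = 3.47e-06), all 5 below every untreated array. Gstm3 was at 12.07, 12.02, 7.80, 11.64 and 11.07 in ANIT and 5.97, 6.77 and 8.55 in untreated liver (3.999 ± 0.69, adjusted p = 0.000104), with ANIT 3 inside the untreated range and the other 4 above it. Gstm7 and Gstz1, which degrades tyrosine products, fell by 1.67 and 0.96, while Gstm4 and Gstm1 rose 1.96-fold and 1.45-fold. These genes are close relatives, and a probe set of one may also bind another.

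Targets of NRF2, the sensor of electrophiles, were higher in 5 of 23 and lower in 1, and in 3 and 1 without ANIT 3. Gpx2, a glutathione peroxidase best known from gut, was at 9.02, 8.47, 6.000, 9.31 and 8.97 in ANIT and 4.46, 5.005 and 5.82 in untreated liver (3.37 ± 0.49, adjusted p = 1.01e-05). Srxn1, which repairs oxidised peroxiredoxins, was at 11.39, 11.07, 11.60, 9.95 and 9.70 in ANIT and 7.69, 7.90 and 9.25 in untreated liver (2.64 ± 0.41, adjusted p = 2.73e-05). Hmox1, which opens heme, was at 11.52, 11.60, 12.37, 11.64 and 10.87 in ANIT and 9.28, 9.60 and 10.69 in untreated liver (1.84 ± 0.42, adjusted p = 0.00224). The ANIT arrays were above all untreated arrays in these 3 genes. Nqo1, a quinone reductase, and Gclc and Gclm, the subunits that set glutathione synthesis, were not called (0.52 ± 0.29, adjusted p = 0.214; 0.13 ± 0.27, adjusted p = 0.767; -0.23 ± 0.25, adjusted p = 0.55). Ephx1, an epoxide hydrolase, was called at 1.12 ± 0.36 with all arrays but had an adjusted p of 0.0601 without ANIT 3. Me1, which makes NADPH, was lower (-1.03 ± 0.26, adjusted p = 0.005).

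The promoter of Gpx2 is shown because it holds the letters of an antioxidant response element. The letters searched were TGACNNNGC on both strands, in the 250 bases before and 50 after the start of transcription given by RefSeq (GRCr8). They stood in 14.4% of the promoters of 11734 measured genes, and in 6 of 21 of NRF2 targets. The window is chr6:101229984-101230283 (minus strand), and the element is in capitals.
Gpx2: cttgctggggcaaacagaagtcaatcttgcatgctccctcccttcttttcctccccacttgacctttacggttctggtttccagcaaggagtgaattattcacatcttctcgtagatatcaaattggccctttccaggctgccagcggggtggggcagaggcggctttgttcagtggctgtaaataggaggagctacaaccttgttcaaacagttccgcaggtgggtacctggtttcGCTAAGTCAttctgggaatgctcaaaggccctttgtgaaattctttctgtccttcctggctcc
Srxn1 and Gstm3 had promoters in the same table and no match to TGACNNNGC in this window. Other spellings of the element were not searched.

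The pathway from acetyl coenzyme A to cholesterol was higher in 9 of 19 genes and lower in none, and without ANIT 3 in 15 of 19. Its mean level relative to untreated liver was -0.65 in ANIT 3 and 1.19 to 1.60 in the other ANIT arrays, against -0.20 to 0.20 in untreated liver. Along the pathway, Acat2, which joins acetyl units, was at 11.12, 11.14, 7.59, 11.02 and 11.95 in ANIT and 8.50, 8.75 and 8.98 in untreated liver (1.80 ± 0.44, adjusted p = 0.00428; without ANIT 3 2.55 ± 0.35, adjusted p = 3.83e-06). Mvk, which phosphorylates mevalonate, was at 10.54, 10.52, 8.33, 10.56 and 10.36 in ANIT and 8.55, 8.82 and 9.16 in untreated liver (1.26 ± 0.25, adjusted p = 0.000648; without ANIT 3 1.69 ± 0.20, adjusted p = 3.31e-07). Mvd, which makes isopentenyl diphosphate, was at 10.42, 10.45, 7.55, 10.71 and 11.76 in ANIT and 8.01, 8.23 and 8.46 in untreated liver (1.91 ± 0.38, adjusted p = 0.000526; without ANIT 3 2.57 ± 0.29, adjusted p = 2.48e-07). In these 3 genes ANIT 3 lay below every untreated array and the other 4 ANIT arrays above every untreated array. Idi1, which isomerises that product, was at 12.07, 12.23, 9.11, 11.91 and 12.61 in ANIT and 8.14, 9.28 and 10.01 in untreated liver (2.36 ± 0.47, adjusted p = 0.00055; without ANIT 3 2.98 ± 0.43, adjusted p = 8.91e-06). Sqle, the epoxidase that commits squalene to sterols, was at 11.76, 11.48, 9.14, 11.45 and 11.66 in ANIT and 8.35, 9.07 and 10.14 in untreated liver (1.98 ± 0.42, adjusted p = 0.00102; without ANIT 3 2.47 ± 0.40, adjusted p = 4.21e-05). Here ANIT 3 was inside the untreated range. Hsd17b7, a ketoreductase of the late steps, was called at 1.36 ± 0.48, adjusted p = 0.0464, and at 2.02 ± 0.43, adjusted p = 0.00134 without ANIT 3.

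Other genes of this list were also called higher both with and without ANIT 3, and their promoters are not shown. Promoters are shown for the 5 genes named above that had a window. They are the same RefSeq windows (GRCr8), read 5′ to 3′ on the gene's strand: chr1:50100590-50100889 (plus strand) for Acat2, chr12:47819454-47819753 (minus strand) for Mvk, chr19:67414925-67415224 (minus strand) for Mvd, chr17:66547475-66547774 (minus strand) for Idi1 and chr13:84722705-84723004 (minus strand) for Hsd17b7. Capitals mark 2 motifs on either strand, the CCAAT box, which NF-Y binds beside sterol elements, and CACNCCAC, a short form of the sterol element that SREBP binds.
Acat2: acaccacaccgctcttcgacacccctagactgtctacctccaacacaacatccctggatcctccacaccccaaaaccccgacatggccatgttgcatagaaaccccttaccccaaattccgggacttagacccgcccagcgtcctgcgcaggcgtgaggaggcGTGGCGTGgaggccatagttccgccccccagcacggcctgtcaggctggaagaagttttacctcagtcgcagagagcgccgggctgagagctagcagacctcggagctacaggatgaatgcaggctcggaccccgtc
Mvk: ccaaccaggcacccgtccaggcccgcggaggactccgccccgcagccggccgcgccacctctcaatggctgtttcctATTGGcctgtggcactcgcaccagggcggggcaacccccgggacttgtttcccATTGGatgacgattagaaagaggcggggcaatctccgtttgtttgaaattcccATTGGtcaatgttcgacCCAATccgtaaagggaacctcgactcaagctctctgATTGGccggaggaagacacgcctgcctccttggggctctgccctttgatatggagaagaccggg
Mvd: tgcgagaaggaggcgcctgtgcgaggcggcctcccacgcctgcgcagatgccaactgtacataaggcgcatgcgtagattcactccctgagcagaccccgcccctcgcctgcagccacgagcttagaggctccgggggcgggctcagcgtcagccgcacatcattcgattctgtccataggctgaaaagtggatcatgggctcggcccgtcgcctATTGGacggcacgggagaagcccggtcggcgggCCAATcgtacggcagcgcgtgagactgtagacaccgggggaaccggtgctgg
Idi1: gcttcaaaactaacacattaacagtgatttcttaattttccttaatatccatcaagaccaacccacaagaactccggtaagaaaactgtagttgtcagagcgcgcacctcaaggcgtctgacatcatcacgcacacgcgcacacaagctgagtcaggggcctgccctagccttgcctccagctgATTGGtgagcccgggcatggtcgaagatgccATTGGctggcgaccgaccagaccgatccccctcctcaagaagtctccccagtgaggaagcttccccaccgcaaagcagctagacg
Hsd17b7: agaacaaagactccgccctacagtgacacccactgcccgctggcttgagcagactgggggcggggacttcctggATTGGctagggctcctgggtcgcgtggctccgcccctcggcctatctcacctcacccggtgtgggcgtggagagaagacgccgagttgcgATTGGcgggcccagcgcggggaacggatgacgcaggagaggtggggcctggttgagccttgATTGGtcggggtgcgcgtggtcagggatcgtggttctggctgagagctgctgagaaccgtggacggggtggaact
A CCAAT box stood in 13 of the 16 promoters of the list held by the table (81.2%) and in 37.3% of the promoters of all 11734 measured genes. CACNCCAC stood in 2 of 16 (12.5%) and in 5.91% of all, and the longer form TCACNCCAC, which overlaps it, in 0 of 16 and in 1.12% of all. The promoters of Cyp51 and Dhcr7, not shown, held neither motif. A match describes the letters of the window only, and Sqle was not in the table.

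Of 14 genes of sterol sensing and uptake 2 were higher and 1 lower. Scarb1, the receptor for high density lipoprotein, rose 2.33-fold (1.22 ± 0.26, adjusted p = 0.000974), and Scap, which escorts SREBP, 1.53-fold (adjusted p = 0.0222). Insig2, which holds SREBP back, was lower at 11.12, 10.48, 11.28, 10.45 and 9.81 in ANIT and 11.29, 12.10 and 12.36 in untreated liver (-1.35 ± 0.22, adjusted p = 5.00e-05). Of 24 genes of fatty acid synthesis 2 were higher and 5 lower. Pklr, the pyruvate kinase of liver, was at 8.19, 8.13, 8.96, 7.97 and 7.95 in ANIT and 10.87, 11.55 and 12.22 in untreated liver (-3.22 ± 0.38, adjusted p = 7.91e-07). Scd, the desaturase that makes oleate, was at 10.92, 10.14, 9.75, 9.61 and 10.76 in ANIT and 12.01, 12.68 and 13.27 in untreated liver (-2.44 ± 0.33, adjusted p = 4.61e-06). Both were below every untreated array in all 5 ANIT arrays. Elovl6, which lengthens palmitate, was higher at 1.27 ± 0.45 and at 1.87 without ANIT 3. In fatty acid oxidation 3 of 29 were higher and 6 lower (8.19% and 8.29% of all genes). Among them were Eci1, an isomerase of that pathway, at 1.33 ± 0.20, adjusted p = 2.02e-05, and Hacl1, a lyase of branched chains, at -1.75 ± 0.36, adjusted p = 0.000705. The lipases Lipc and Ces1d fell by 1.55 and 2.02 (adjusted p = 4.37e-06 and 1.53e-05).

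Amino acid breakdown and the urea cycle were lower in 14 of 29 genes and higher in 1, with a median of -0.39 and the same counts without ANIT 3. Oat, which turns ornithine toward glutamate, was at 9.67, 9.61, 9.39, 9.31 and 9.29 in ANIT and 11.88, 12.21 and 12.68 in untreated liver (-2.73 ± 0.30, adjusted p = 3.77e-07). Kynu, of tryptophan breakdown, was at 10.58, 9.61, 11.09, 10.25 and 8.77 in ANIT and 11.51, 12.04 and 12.26 in untreated liver (-1.97 ± 0.29, adjusted p = 1.33e-05). Both were below every untreated array in all 5 ANIT arrays. Hal and Uroc1, the first steps of histidine breakdown, fell by 1.53 and 1.25 with no overlap between the groups. Asl, which splits argininosuccinate, was higher (0.64 ± 0.13, adjusted p = 0.000901). In the methionine cycle 5 of 17 were lower and 1 higher, Gnmt, which balances methyl groups, at -1.20 ± 0.19, adjusted p = 3.39e-05 and Cdo1, which oxidises cysteine, at -1.01 ± 0.17, adjusted p = 9.18e-05. Glucose and glycogen genes were lower in 11 of 23 and higher in none. Pklr, given above with fatty acid synthesis, counts here as well. Gckr, which holds glucokinase in the nucleus, was at 9.38, 9.99, 10.66, 10.49 and 9.94 in ANIT and 11.43, 11.61 and 11.74 in untreated liver (-1.50 ± 0.20, adjusted p = 3.47e-06), and Slc37a4, the glucose 6-phosphate carrier, fell by 1.57 (adjusted p = 0.000116). With median-centred arrays 7 of the 23 were lower. Oxidative phosphorylation had 4 of 26 lower, and 0 with median-centred arrays in limma.

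Genes that depend on growth hormone in rat liver were lower in 14 of 21 and higher in none, with a median of -1.004. This list shares Cyp2c11, Cyp3a2 and Slco1a1 with those of cytochromes P450 and sinusoidal uptake. The mean level of the list was -0.71 in ANIT 3, -1.40 to -1.16 in the other ANIT arrays and -0.37 to 0.28 in untreated liver. Ghr, the receptor, was lower at 10.20, 10.24, 10.17, 10.48 and 9.90 in ANIT and 11.16, 11.50 and 11.67 in untreated liver (-1.29 ± 0.18, adjusted p = 8.29e-06), with no overlap. Igf1, its main secreted product, fell by 0.31 (adjusted p = 0.0445), a call lost without ANIT 3 (-0.28 ± 0.12, adjusted p = 0.102). Igfals, which stabilises that factor in plasma, fell by 1.31 (adjusted p = 0.00171). Igfbp2, a binding protein, was higher at 10.35, 10.16, 8.58, 10.83 and 10.15 in ANIT and 7.83, 8.38 and 8.57 in untreated liver (1.75 ± 0.26, adjusted p = 1.79e-05), ANIT 3 lying just above the untreated arrays.

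The cell cycle list was higher in 15 of 49 and lower in 1, and in 9 and 1 without ANIT 3. Its mean level was 1.45 in ANIT 3, 0.17 to 0.37 in the other ANIT arrays and -0.26 to 0.19 in untreated liver. Ccnd1, the cyclin of entry into the cycle, was at 11.10, 11.13, 10.05, 11.07 and 11.03 in ANIT and 8.20, 8.73 and 9.22 in untreated liver (2.17 ± 0.28, adjusted p = 2.64e-06), lowest in ANIT 3. Mcm6, part of the replication helicase, was at 8.34, 7.46, 8.19, 7.26 and 6.81 in ANIT and 4.45, 5.17 and 6.48 in untreated liver (2.25 ± 0.44, adjusted p = 0.000494). The proliferation marker Mki67 was not called. Ccne2 was the lower member at -0.48 ± 0.16, and its 2 probe sets moved in opposite directions. Targets of p53 were higher in 6 of 17 and lower in 1, and in 5 and 0 without ANIT 3, whose mean level was 1.10 against 0.15 to 0.36 in the other ANIT arrays. Phlda3, a p53 target that checks AKT, was at 11.10, 10.84, 11.52, 10.71 and 10.71 in ANIT and 9.06, 9.45 and 9.94 in untreated liver (1.48 ± 0.22, adjusted p = 1.95e-05), and Ccng1, another, had 1.57 ± 0.34, adjusted p = 0.00121. Of 26 regulators of apoptosis 8 were higher and 1 lower. Tnfrsf12a, the receptor of TWEAK, was at 10.52, 11.12, 10.22, 10.63 and 10.86 in ANIT and 7.15, 7.82 and 8.95 in untreated liver (2.95 ± 0.46, adjusted p = 2.73e-05), and Bmf, a killer of the BCL2 family, was lower (-1.73 ± 0.23, adjusted p = 4.61e-06). The transcription factors Klf6 and Jun rose 5.08-fold and 4.08-fold, and Atf3, called at 1.86 ± 0.63, was not called without ANIT 3 (adjusted p = 0.16). The plot of list levels by array shows where ANIT 3 left the other ANIT arrays.

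**Figure D3:**
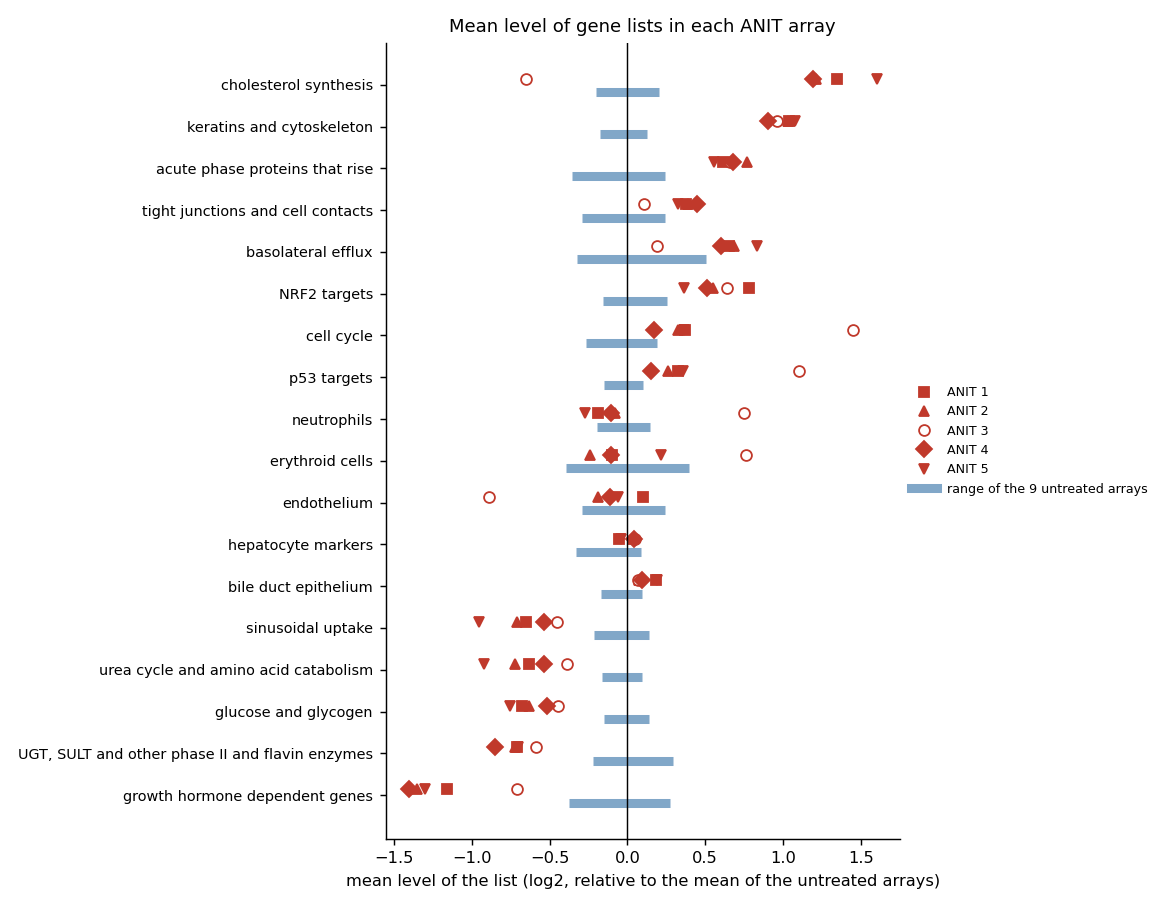
Mean log2 level of 18 gene lists relative to the mean of the untreated arrays (x axis), for each ANIT array (red symbols; ANIT 3 as an open circle) and as the range of the 9 untreated arrays (blue bar). ANIT 3 lies below the other ANIT arrays in cholesterol synthesis and endothelium and above them in cell cycle, p53 targets and neutrophils, and within their range in keratins and cytoskeleton and in acute phase proteins.

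**Figure D4:**
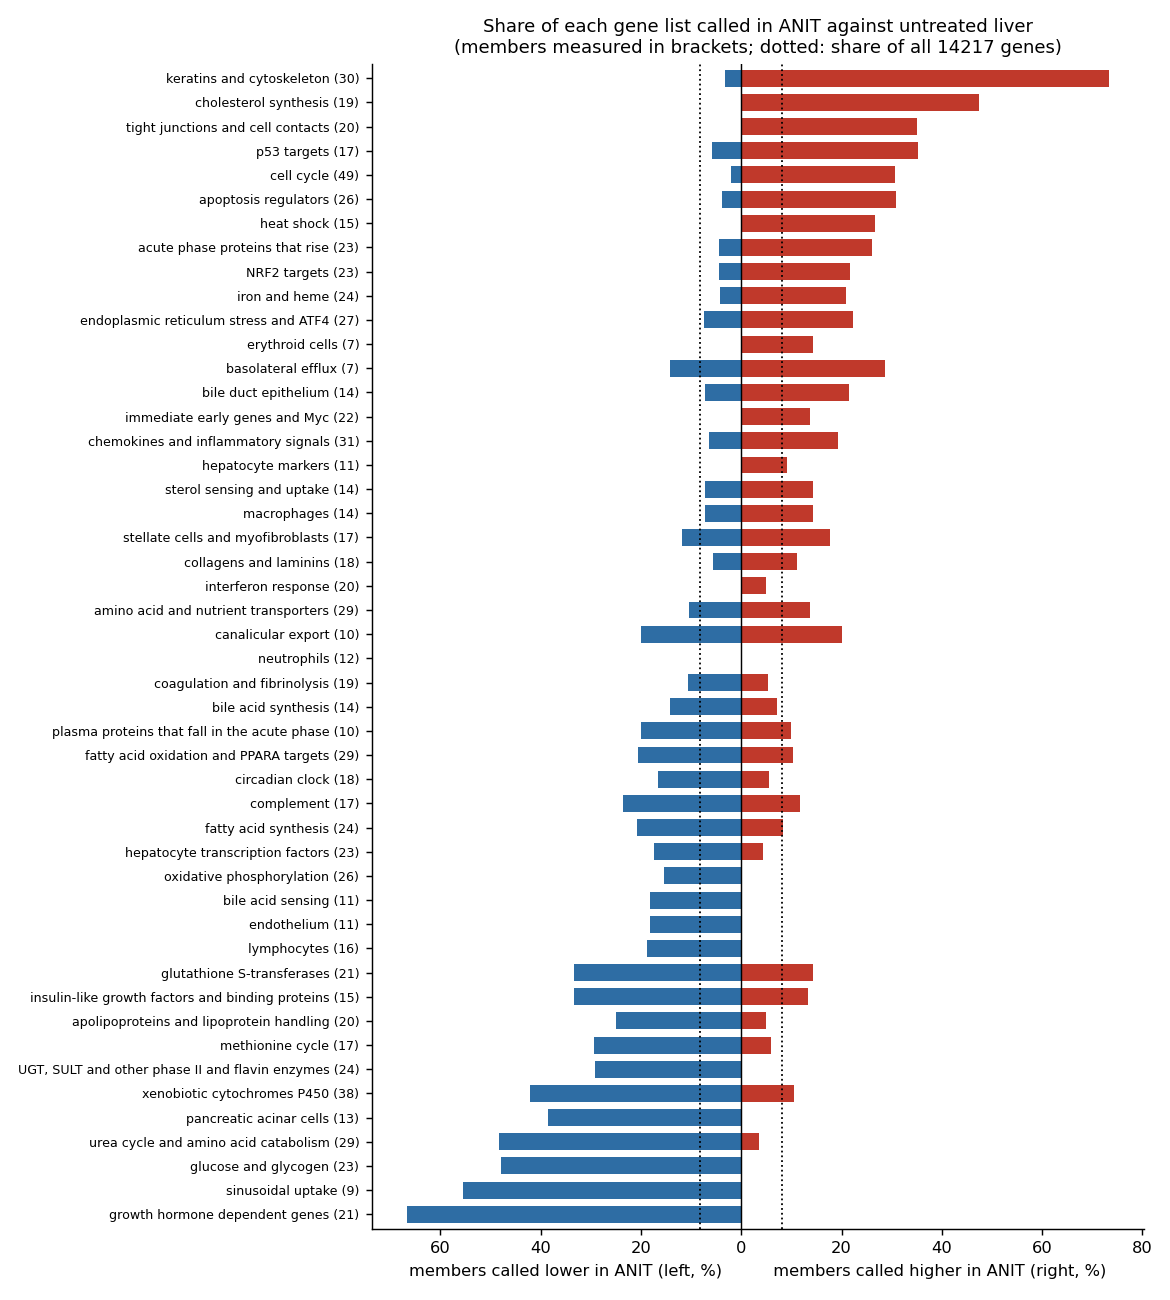
Percent of measured members of each of 48 gene lists called higher (red, to the right) and lower (blue, to the left) in ANIT against untreated liver, with the share of all 14217 genes as dotted lines (8.19% higher, 8.29% lower). Keratins and cytoskeleton (22 of 30) and cholesterol synthesis (9 of 19) have the greatest higher shares, and growth hormone dependent genes (14 of 21) and sinusoidal uptake (5 of 9) the greatest lower shares. Lists and members were chosen with earlier results of these data known.

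ANIT was then set against the mean of DMN and NMF, both known to injure hepatocytes, in the same fit. The groups differ in vehicle, and NMF also in route, so compound, vehicle and route cannot be told apart in this comparison. Here 433 genes were called higher in ANIT (3.05%) and 266 lower (1.87%). Without ANIT 3 there were 743 higher (5.23%) and 457 lower (3.21%), 676 of them among the 699 of the full set. ANIT 3 was singled out for its likeness to DMN in these same values. The counts and calls without ANIT 3, here and below, are therefore no separate support for a difference from DMN. Leaving out ANIT 1, 2, 4 or 5 left 395, 297, 316 and 180 calls. Leaving out DMN 2 left 544 calls, and 509 of these were among the 699.

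Cholesterol synthesis was higher in ANIT in 16 of 19 genes and lower in none, and fatty acid synthesis in 6 of 24 and none. The mean level of cholesterol synthesis relative to untreated liver was -0.65 in ANIT 3, 1.19 to 1.60 in the other ANIT arrays, -1.18 to 0.12 in DMN and -1.09 to -0.28 in NMF. That of fatty acid synthesis was -0.98 in ANIT 3, -0.35 to 0.01 in the other ANIT arrays, -1.59 to -0.53 in DMN, -1.38 to -0.97 in NMF and -0.42 to 0.36 in untreated liver. Every DMN and NMF array was below the untreated mean in fatty acid synthesis. Without ANIT 3 the higher counts were 17 of 19 and 10 of 24. Idi1 was at 11.91 to 12.61 in ANIT arrays other than ANIT 3, 8.94 to 10.59 in DMN and 6.80 to 9.39 in NMF (2.69 ± 0.46, adjusted p = 0.000471). Hsd17b7 and Acat2 had 2.63 ± 0.47, adjusted p = 0.000744 and 2.57 ± 0.43, adjusted p = 0.000416. Cyp1a1 averaged 9.89 ± 2.66 in ANIT, 7.39 ± 1.05 in DMN and 5.84 ± 1.005 in NMF (SD, n = 5 each; difference 3.27 ± 0.74, adjusted p = 0.00729). Cyp7a1, not called against untreated liver, was higher in ANIT than in these compounds (2.56 ± 0.67, adjusted p = 0.0201), with 8.52 to 11.68 in ANIT, 5.57 to 11.07 in DMN and 6.47 to 8.63 in NMF. Lcn2 was at 12.65 to 13.34 in ANIT, 7.997 to 13.19 in DMN and 6.65 to 8.89 in NMF (3.17 ± 0.88, adjusted p = 0.0287). The highest DMN array lay within the ANIT range and every NMF array below it.

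Some genes of the electrophile response ran the other way. Akr1b8, an aldose reductase, averaged 6.23 ± 1.06 in ANIT, 7.33 ± 0.90 in DMN and 11.79 ± 1.07 in NMF (SD, n = 5 each; difference -3.34 ± 0.39, adjusted p = 1.41e-06). Gstp1, a transferase of electrophiles, averaged 8.97 ± 0.24 in ANIT, 9.50 ± 0.68 in DMN and 12.69 ± 0.71 in NMF (-2.12 ± 0.27, adjusted p = 6.59e-06). In both, NMF alone stood clear of the other groups. Gstp3 and Serpina6 were lower in ANIT than the mean of DMN and NMF (-2.98 ± 0.50, adjusted p = 0.000416 and -2.38 ± 0.56, adjusted p = 0.00983), and Abcg5 was lower too (-2.03 ± 0.50, adjusted p = 0.0131). Of 23 NRF2 targets 4 were lower (1.87% of all genes) and none higher. Without ANIT 3 there were 4 lower and 3 higher (3.21% and 5.23% of all genes). Of 21 glutathione S-transferases 5 were lower and none higher. Relative to untreated liver, NRF2 targets averaged 0.36 to 0.78 in ANIT arrays, 0.05 to 0.56 in DMN and 0.85 to 1.79 in NMF. The transferases averaged -0.36 to -0.003 in ANIT arrays, -0.38 to 0.35 in DMN and 0.52 to 0.855 in NMF. In both lists every NMF array lay above every ANIT and DMN array. Cyp1a2 differed by 1.61 ± 0.13, adjusted p = 1.64e-10, with ANIT at 12.60 to 13.16, DMN at 12.15 to 12.66 and NMF at 9.65 to 10.35. The falls in Stac3, Oat, Fmo1 and Nrep were not called in this comparison, nor was the rise in Abcc3 (1.56 ± 0.69, adjusted p = 0.186). Abcc3 was at 7.15 to 11.21 in ANIT, 4.89 to 8.38 in DMN and 9.84 to 11.23 in NMF, and without ANIT 3 it was called (2.27 ± 0.69, adjusted p = 0.0323). Cytoskeleton genes had 3 of 30 higher (3.05% of all genes) and none lower.

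**Figure D5:**
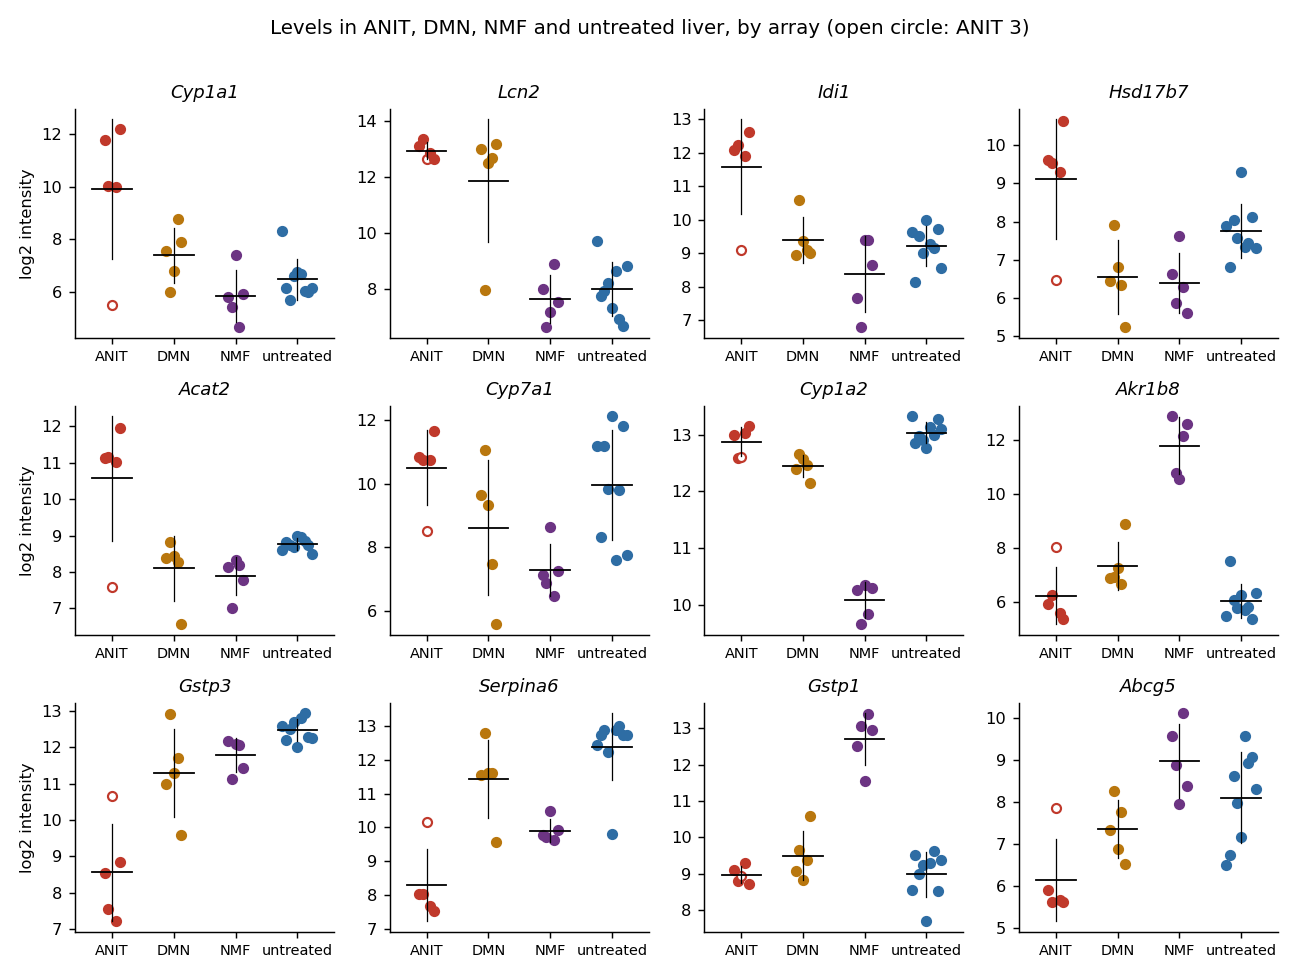
Log2 intensity of 12 genes in each array of ANIT (red; ANIT 3 as an open circle), DMN (orange), NMF (purple) and untreated liver (blue), with the group mean as a bar and 1 SD as a vertical line. Idi1, Acat2 and Cyp1a1 are higher in each ANIT array other than ANIT 3 than in any DMN, NMF or untreated array, and Akr1b8 and Gstp1 are highest in NMF.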

How the data were processed

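Liver RNA was hybridised to 39 Affymetrix Rat 230 2.0 arrays. The authors deposited 1 table of linear intensity values, from 5.4 to 23152.1, for 31099 probe sets. RMA and the package affy are named without a version, per the submitters' processing notes, and the step back to a linear scale is not given in the sources used here. The log2 of each deposited intensity was taken. Of the probe sets, 57 were controls, 20826 had 1 gene symbol, 436 had several and 9780 had none. Symbols of 20760 probe sets were updated through the RefSeq gene table, and the probe set with the highest mean stood for each of 14217 genes (4525 genes had more than 1). limma 3.58.1 in R 4.3.3 was fitted to all 39 arrays with 1 mean per group, and p-values were adjusted by Benjamini-Hochberg over all genes. Groups were taken from the titles. Nothing in the labels says that replicates came from separate animals beyond the word biological, so p-values measure the spread between these samples. The number of arrays limits the precision.

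Genes named with values are the 10 largest rises and 10 largest falls, up to 4 called members of each list in each direction, a set of bile, duct, inflammation and xenobiotic genes whatever their result, and the 5 largest differences each way against DMN and NMF. The other cytoskeleton members, Col1a1, Mki67, the fibrinogen genes, Hp, C3 and Crp were named after their values were seen. Members and lists were chosen with earlier results of these data known. The fit was tested on simulated data. Alternatives covered scaling, dim genes, probe set choice, arrays in the fit, array weights, RNA quality, doubted labels, replicate numbers and each array left out.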

Additional observations from a re-analysis of the deposited data

Results flagged for a closer look

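In 43 of 292 groups of values tested, 1 array lay farther from the others than Dixon's 95% limit allows. Each group held 1 named gene in the ANIT or the untreated arrays. Chance gives about 1 in 20 for separate groups. These shared the same arrays, and many genes were named for their results, so that rate is no yardstick here. ANIT 3, already singled out in these same values, was the outlying array in 21 of the 43. Its log2 values were Abcc3 (7.15), Abcg5 (7.85), Acat2 (7.59), Ccnd1 (10.05), Cdh1 (11.23), Gpx2 (6.00), Gstm1 (13.20), Gstm3 (7.80), Idi1 (9.11), Krt18 (12.51), Krt19 (6.83), Krt8 (12.17), Lyz2 (12.79), Mvk (8.33), Neurl3 (9.01), Pklr (8.96), S100a9 (10.89), Serpina6 (10.16), Slc27a5 (12.08), Sqle (9.14) and Timp1 (8.05). The other ANIT arrays gave 4: in ANIT 1 Cxcl12 (10.06) and Slc51a (4.75), in ANIT 4 Gnmt (11.91) and in ANIT 5 Cyp2e1 (12.26).

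Untreated arrays gave 18, of which untreated 5, low in GAPDH signal, gave 9, Apoa1 (12.88), Cd14 (10.03), Gstm1 (12.27), Oat (12.68), Orm1 (11.86), Serpina6 (9.81), Slc37a4 (9.92), Tm4sf4 (12.10) and Tnfaip3 (7.65). Untreated 1 gave Cyp1a1 (8.30), Gclm (8.06), Gstz1 (11.80), Kdr (9.09), Kynu (11.51), Lipc (11.45) and Srxn1 (9.25). Untreated 2 gave Akr1b8 (7.53) and untreated 8 Nqo1 (8.44).

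Probe sets with no gene symbol stood outside every comparison above. Of 9780 such probe sets, 435 were called in ANIT against untreated liver by limma with Benjamini-Hochberg adjustment, 134 higher and 301 lower.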

How the results depend on the processing

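Against untreated liver 2344 genes were called, 1165 higher and 1179 lower. Array weights gave 4839 (2514 higher, 2325 lower), and the set without arrays of low GAPDH 5′ signal 3632 (1921 higher). Leaving out those arrays and ANIT 3, a choice made after seeing the data, gave 1861 higher. Median-centred arrays gave 627 lower, and the replicate block gave 714 higher of 1695 calls. Leaving out 1 ANIT array gave 1693 to 2104 calls (867 to 1185 higher, 826 to 919 lower). Leaving out 1 untreated array gave 1916 to 2752 (967 to 1449 higher, 941 to 1303 lower).

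Against DMN and NMF 699 genes were called, 433 higher and 266 lower. The 3 groups alone gave 347 (236 higher, 111 lower), array weights 2313 (1310 higher, 1003 lower), and leaving out 3 arrays of doubted label (ANIT 3, DMN 2 and Roziglitazone 2) 1280 (757 higher, 523 lower). Without arrays of low GAPDH 5′ signal there were 1596 (974 higher, 622 lower), and without these and ANIT 3 there were 2220 (1359 higher, 861 lower). Median-centred arrays gave 166 lower. Leaving out 1 array gave 180 to 1200 calls for ANIT (132 to 743 higher, 48 to 457 lower) and 657 to 797 for untreated (406 to 497 higher, 248 to 300 lower). For DMN it gave 544 to 789 (332 to 515 higher, 212 to 315 lower) and for NMF 486 to 749 (305 to 479 higher, 181 to 293 lower), both chosen after seeing the data. The cause of these moves was not tested.

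Of 126 called genes among the 146 named with values, 95 were called in every alternative that tested them. The 1 reversal was Ccne2 at 0.51 with the mean over its probe sets. Correlations of same-numbered ANIT and untreated arrays ran from -0.04 to 0.30, so the numbers were not taken as pairs. The replicate block gave 670 calls against DMN and NMF. Of the genes named with values 17 lost their call against untreated liver under the replicate block, among them Abcg5 (adjusted p = 0.105) and Abcg8 (adjusted p = 0.0583).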
